A study of Bos taurus with 4 samples.

Results

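The insulin-like growth factor (IGF) axis genes are described here in early bovine embryos. They were chosen by name, with earlier results of these data known. The list has 10 genes: the ligand IGF1, the receptors IGF1R and INSR, and the binding proteins IGFBP1 to IGFBP7. Of the 10 genes, 9 had a row in the deposited table of 14517 transcripts, each with 1 row. INSR, the insulin receptor gene, was not analysed here. IGF ligands bind the receptor tyrosine kinase encoded by IGF1R, which signals through adaptor proteins to the PI3K and AKT kinases and to the RAS and ERK kinases. The binding proteins are secreted, hold the ligands with high affinity and thereby set how much free ligand reaches the receptor. IGFBP7 differs from the rest in that it binds IGF weakly. In early embryos the axis is known for its effects on cell survival and proliferation.

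Polyadenylated RNA was sequenced from Bos taurus embryos of 8 to 16 cells, collected on day 3 after insemination. All embryos had been injected as zygotes, either with negative control siRNAs (NC, 2 libraries) or with siRNAs against KDM5A, KDM5B and KDM5C (KDM5_KD, 2 libraries). KDM5 enzymes are demethylases of lysine 4 on histone H3. The comparison asks how transcript levels differ when these genes are knocked down. The labels of KDM5_KD replicate 2 disagree: its title names a KDM5 knockdown and its treatment entry names KDM6 siRNAs. It is kept in the group of its title, and the log2 fold changes of all tested members without it are also given. The same holds for genes named by the rule under data processing that it moves by over 1.5 times. Genes named only for context, such as STC2 and KDM6A, are not given without it. The labels do not say how many embryos entered a library, whether the libraries came from separate collections, or which breed was used. The p-values therefore measure only the spread between these samples, which may be technical.

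Values are FPKM, that is fragments scaled to transcript length and library size, so levels can be set side by side between genes. The libraries summed to 283347 to 322267 FPKM, and NC replicate 2 was the deepest, the other libraries having 0.683 to 0.803 times its depth as judged from the steps of the lowest values. Differences were tested with limma, a moderated linear model fitted to all transcripts, with p-values adjusted for the number tested and a threshold of 0.05. KDM5A measured 28.4 and 27.1 FPKM in the controls against 10.5 and 10.1 FPKM in the knockdown libraries (limma adjusted p = 0.0333). KDM5C had 28.1 and 40.6 FPKM in NC, compared with 15.1 and 17.8 FPKM in KDM5_KD (limma adjusted p = 0.123). KDM5B, the remaining siRNA target, was not analysed here. KDM5A and KDM5C had knockdown values below both controls in each of the 2 libraries, also in the one whose treatment entry names KDM6. KDM6A was found at 7.63 and 11.3 FPKM in NC, at 7.90 FPKM in KDM5_KD replicate 1 and at 9.29 FPKM in KDM5_KD replicate 2, so that both knockdown libraries lay between the controls. The KDM5A call was lost when any library other than NC replicate 1 was left out (limma adjusted p = 0.0625 without NC replicate 2, 0.179 without KDM5_KD replicate 1 and 0.232 without KDM5_KD replicate 2), at log2 fold changes of -1.38 to -1.32. KDM5C passed without NC replicate 1 (limma adjusted p = 0.0265). Of 20 listed oocyte and genome activation genes, 14 had a row, and POU5F1, DPPA3, BMP15 and ZP3 were above 1 FPKM in every library.

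IGF1 itself, the ligand that gives the axis its name, was listed at 0 in all 4 libraries. An exact 0 in an estimated FPKM table can be a failed estimate, so it is given only as listed. The other ligands of the family were near it. IGF2, the fetal growth ligand, had 7 transcript rows that summed to 0.305 and 0.121 FPKM in NC and to 0.546 and 0.632 FPKM in KDM5_KD, while both INS rows were listed at 0. No ligand gene of the family reached 1 FPKM in any library. Of 11 listed other ligands, receptors and carriers, 10 had a row, and only IGF2R and HTRA1 were abundant enough to be tested.

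The receptor gene IGF1R was measured well above the ligands. It was present at 10.6 and 7.08 FPKM in NC, and the knockdown libraries had 11.4 and 16.7 FPKM. Every knockdown library lay above both controls, but KDM5_KD replicate 1 was only just above NC replicate 1. The log2 fold change was 0.61 (95% interval -0.03 to 1.25, limma adjusted p = 0.308), so it did not pass the threshold. It was 0.35 without KDM5_KD replicate 2 (limma adjusted p = 0.858) and also 0.35 without NC replicate 2 (limma adjusted p = 0.598). IGF2R, the receptor that clears IGF2 rather than signalling and an imprinted gene in many mammals, measured 8.81 and 8.52 FPKM in the controls against 7.22 and 7.39 FPKM in the knockdown libraries. Its log2 fold change was -0.22 (limma adjusted p = 0.556). The ratio of IGF1R to IGF2R, which does not depend on library scaling, was 1.20 and 0.831 in NC and 1.57 and 2.26 in KDM5_KD.

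Of the 7 binding protein genes, 5 were expressed above 1 FPKM in every library. IGFBP5, whose protein also binds extracellular matrix, had the highest mean of the axis in both groups. Its levels were 89.7 and 31.0 FPKM in the controls, compared with 266 and 149 FPKM in the knockdown. Both knockdown libraries exceeded both controls, and the 2 controls differed 2.90-fold from each other. By its mean it stood at the 92.6th percentile of all rows in NC and at the 98.5th in KDM5_KD.

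IGFBP7, the weak IGF binder, followed the same order of libraries. It had 45.4 and 11.2 FPKM in NC, compared with 102 and 63.8 FPKM in KDM5_KD. Here too the groups did not overlap, while NC replicate 1 was 4.04 times NC replicate 2. IGFBP6, which prefers IGF2 as its ligand, had 8.52 and 3.04 FPKM in NC and 10.8 and 10.3 FPKM in KDM5_KD. Its knockdown libraries were close together, and the higher control came near them.

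IGFBP2, a binding protein typical of embryonic and fetal tissue, had the opposite order of groups. It was present at 35.9 and 30.2 FPKM in NC, and the knockdown libraries had 26.9 and 21.6 FPKM. Each knockdown library was below each control, with a ratio of group means of 0.733. IGFBP3, which encodes the main IGF carrier of the blood, measured 11.6 and 8.74 FPKM in the controls against 11.5 and 8.44 FPKM in the knockdown libraries. Its groups overlapped almost completely.

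The remaining 2 binding protein genes averaged under 1 FPKM and were not tested. IGFBP4, whose protein is the classical substrate of the protease PAPPA, had 0.439 and 0.0800 FPKM in NC, compared with 1.54 and 0.844 FPKM in KDM5_KD. The knockdown libraries were again above the controls, as they were for 4233 of all 14517 rows. The group means of IGFBP4 stood at the 29.4th percentile of all rows in NC and at the 38.8th in KDM5_KD. IGFBP1, known for its regulation by insulin in liver, was present at 0.471 and 0.900 FPKM in NC, and the knockdown libraries had 0.0802 and 1.44 FPKM. The 2 knockdown libraries held both the lowest and the highest value of this gene, so no direction can be read from it.

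**Figure D1:**
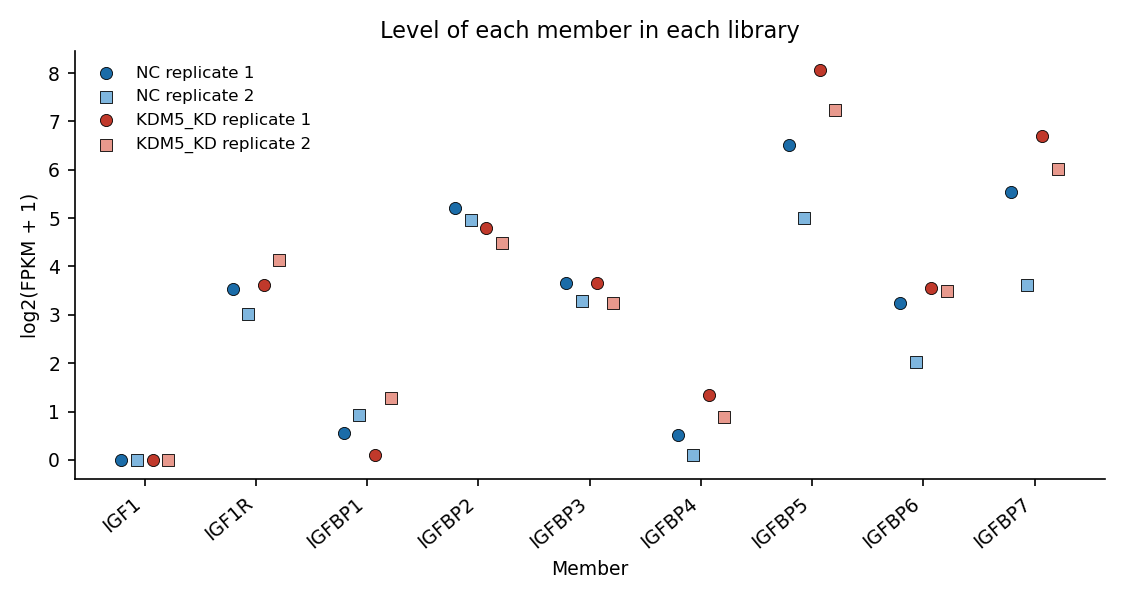
Level of the 9 measured members as log2(FPKM + 1) on the vertical axis, with 1 point per library (blue for NC, red for KDM5_KD, circles for replicate 1 and squares for replicate 2). IGFBP5 and IGFBP7 have both red points above both blue points, IGFBP2 has both below, and IGF1 is at 0 throughout.

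The order of levels differed between the groups. In NC the order of mean FPKM was IGFBP5, IGFBP2, IGFBP7, IGFBP3, IGF1R, IGFBP6, IGFBP1 and IGFBP4. Every pair of neighbours from IGFBP5 down to IGFBP6 overlapped when values were compared across libraries. Within each NC library the same order held, except that IGFBP7 was above IGFBP2 in NC replicate 1. In KDM5_KD the order of mean FPKM was IGFBP5, IGFBP7, IGFBP2, IGF1R, IGFBP6, IGFBP3, IGFBP4 and IGFBP1. There the first 5 were separated from one another in both libraries, while IGFBP6 and IGFBP3 overlapped, as did IGFBP4 and IGFBP1. IGFBP3 also overlapped IGF1R, with 11.5 FPKM against 11.4 FPKM for IGF1R in KDM5_KD replicate 1.

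Summed over the 7 binding protein genes, the level was 192 and 85.1 FPKM in NC and 419 and 256 FPKM in KDM5_KD. IGFBP5, IGFBP7 and IGFBP2 together made up 85.0% to 94.3% of this sum in the 4 libraries. The share of IGFBP5 was 46.7% and 36.4% in NC and 63.4% and 58.4% in KDM5_KD. The share of IGFBP2 was 18.7% and 35.4% in NC against 6.42% and 8.43% in KDM5_KD. The make-up of the binding protein transcripts thus leaned further towards IGFBP5 in the knockdown libraries than in NC. In NC replicate 2, IGFBP5 and IGFBP2 had almost the same level.

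**Figure D2:**
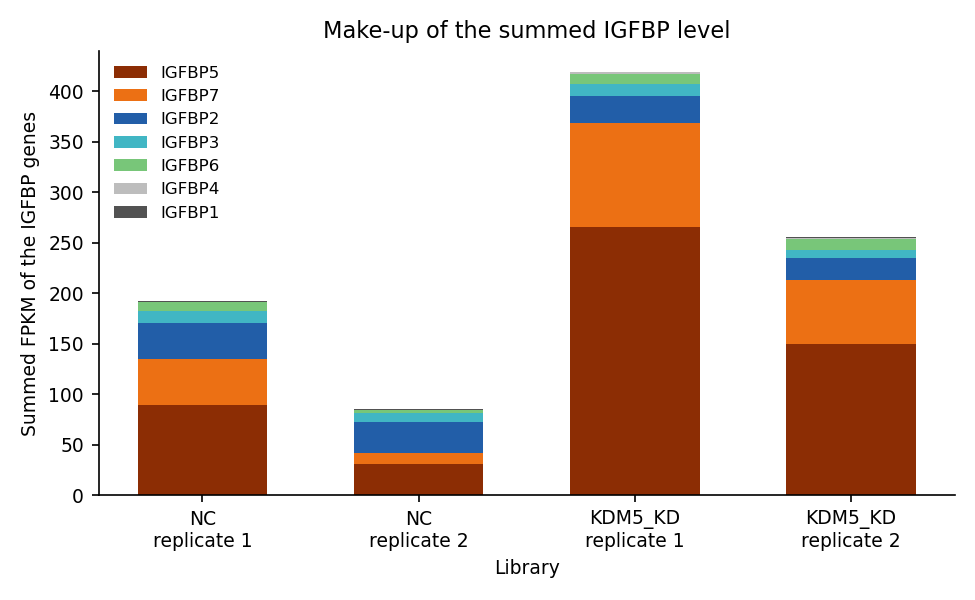
Summed FPKM of the 7 IGFBP genes in each library (bars from 0), divided by gene. The bars reach 192 and 85.1 FPKM in NC and 419 and 256 FPKM in KDM5_KD, and the IGFBP5 and IGFBP7 segments account for most of the height in the knockdown libraries.

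IGFBP2 and IGFBP5 are neighbouring genes on chromosome 2 of the ARS-UCD2.0 gene table, with no other coding gene listed between them, and IGFBP1 and IGFBP3 are neighbours on chromosome 4. The members of the first pair had log2 fold changes of opposite sign. The ratio of IGFBP5 to IGFBP2 was 2.50 and 1.03 in NC and 9.88 and 6.93 in KDM5_KD. This ratio cancels any scaling of a library. Its groups could not overlap, since both knockdown libraries were above both controls for IGFBP5 and below both for IGFBP2. The ratio was chosen after the values were seen. An exact permutation test of 2 libraries against 2 cannot give a two-sided p below 0.333. The ratio of IGFBP5 to IGFBP7, which lie on different chromosomes, stayed within 1.98 to 2.76 over the 4 libraries.

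Differences between the groups were tested for the 6 members with a mean of at least 1 FPKM, in a limma fit of log2(FPKM + 1) over 8970 transcripts. None of the 6 passed an adjusted p of 0.05 in either direction, against 0.279% of all tested transcripts (17 higher, which is 0.19%, and 8 lower, which is 0.0892%). At an unadjusted limma p under 0.05 there were 3 members, IGFBP5, IGFBP7 and IGFBP2, against 17.5% of all transcripts. The largest difference was that of IGFBP5, with a log2 fold change of 1.89 (SE 0.505, 95% interval 0.66 to 3.13, limma adjusted p = 0.162). IGFBP7 had 1.78 (SE 0.598, 95% interval 0.32 to 3.24, limma adjusted p = 0.218) and IGFBP6 0.90 (SE 0.395, limma adjusted p = 0.316). IGFBP2 had -0.43 (SE 0.169, 95% interval -0.85 to -0.02, limma adjusted p = 0.271). The interval of IGFBP3 was -0.57 to 0.53 around -0.02 (limma adjusted p = 0.970), which leaves room for changes in both directions.

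**Figure D3:**
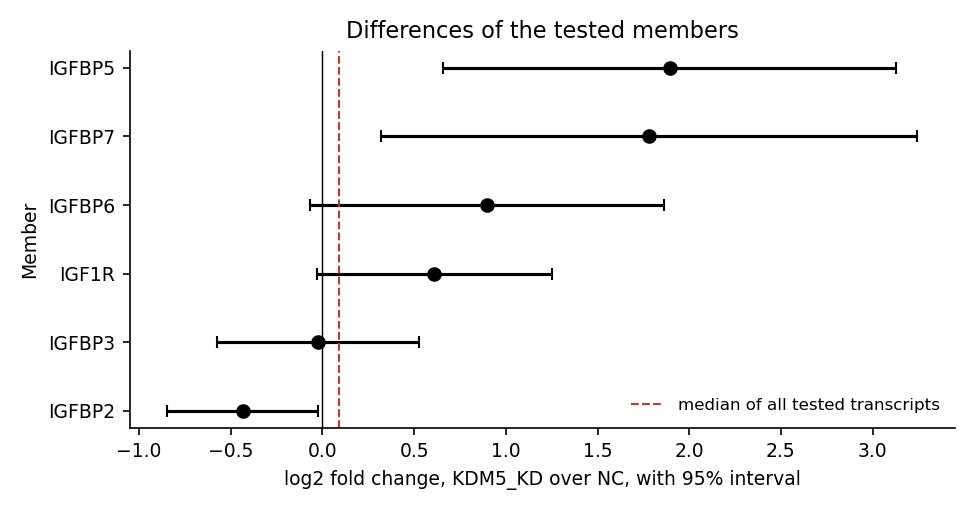
Log2 fold change of the 6 tested members on the log2(FPKM + 1) scale (points) with the 95% interval of the limma fit (bars). The dashed line is the median of all tested transcripts, 0.09. The intervals of IGFBP5, IGFBP7 and IGFBP2 do not include 0, and no member passed after adjustment.

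Without a test, 4 of the 6 members (IGFBP5, IGFBP7, IGFBP6 and IGF1R) had both knockdown libraries above both controls, where 35.1% of all tested transcripts did. IGFBP2 had both below, where 15.6% did. IGFBP5 and IGFBP7 exceeded a 2-fold difference on the log2(FPKM + 1) scale, as 4.52% of transcripts did, and lay at the 99.3rd and 99.1st percentile of all log2 fold changes. IGFBP2 lay at the 3.22nd percentile. The median of the 6 members was 0.75 against 0.09 for all tested transcripts. Without KDM5_KD replicate 2, the library with the conflicting label, the same 4 members were above the controls (45% of all transcripts) and IGFBP2 was below (25.9%). Without that library the log2 fold changes of IGFBP5, IGFBP7 and IGFBP6 were 2.31, 2.12 and 0.93, and those of IGF1R, IGFBP3 and IGFBP2 were 0.35, 0.18 and -0.28. The limma adjusted p of these 6 then ranged from 0.386 to 0.935.

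The controls differed from each other for the same members. NC replicate 1 exceeded NC replicate 2 in 6 of the 6 tested members, where 55.8% of all transcripts did. It did so by at least 1 on the log2 scale for IGFBP5, IGFBP7 and IGFBP6, where 2.25% did. These gaps were 1.50, 1.92 and 1.24, at the 99.2nd, 99.6th and 98.6th percentile of all transcripts. IGFBP2 had a gap of 0.24 and IGF1R one of 0.52. Since embryos were sequenced in bulk, more RNA per cell and more cells with a transcript cannot be told apart.

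Which control is used sets the size of the difference. Without NC replicate 1, IGFBP5, IGFBP6 and IGFBP7 had log2 fold changes of 2.65, 1.51 and 2.74 and passed the threshold (limma adjusted p = 0.0174, 0.0304 and 0.00963). The number of transcripts called higher then also went from 17 to 323, or 3.6% of those tested, and the single control is assumed to vary like the other group. Without NC replicate 2 the same 3 genes had 1.14, 0.28 and 0.82 (limma adjusted p = 0.260, 0.588 and 0.308). Their direction was the same in both cases, and of the 4 libraries left out in turn only NC replicate 1 gave a call.

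**Figure D4:**
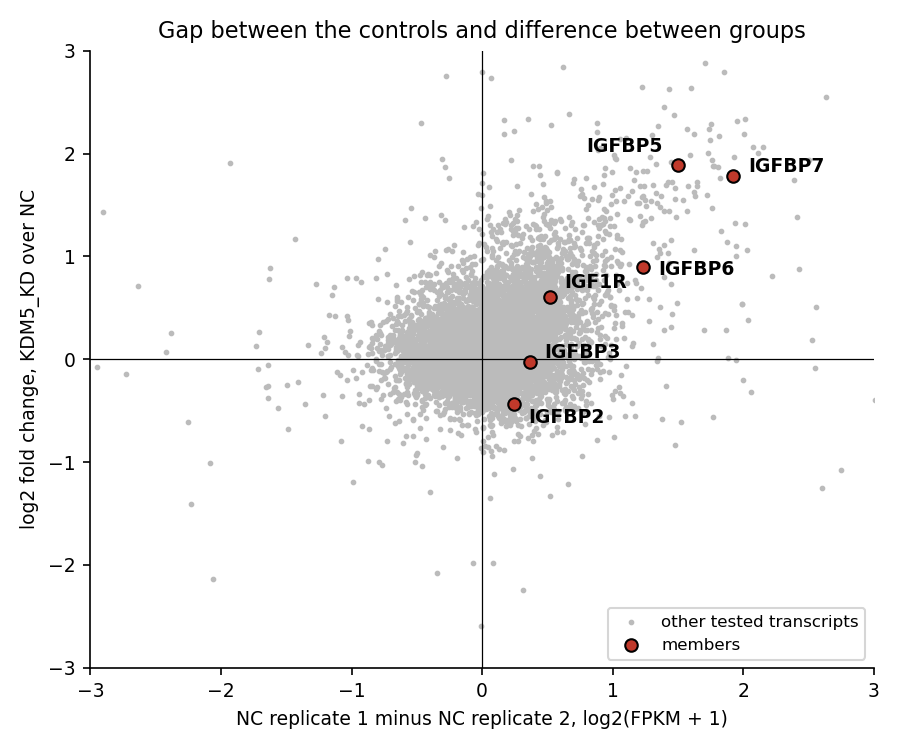
Each tested transcript by the gap between the 2 controls (horizontal axis, NC replicate 1 minus NC replicate 2 on the log2(FPKM + 1) scale) and the log2 fold change of KDM5_KD over NC (vertical axis). Both axes use the NC libraries, and 25 transcripts beyond 3 on either axis are not drawn. IGFBP5, IGFBP7 and IGFBP6 lie at the right edge of the cloud, with gaps of 1.24 to 1.92, and IGFBP2 below 0.

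The transcripts with the pattern most like that of IGFBP5 were sought by Euclidean distance between centred log2(FPKM + 1) values over the 4 libraries. Among 8835 transcripts with a symbol, CRABP2, which encodes a retinoic acid binding protein, was nearest (distance 0.276), followed by TCIM (0.283) and IGFBP7 (0.335). CRABP2 measured 28.5 and 11.5 FPKM in the controls against 82.0 and 55.5 FPKM in the knockdown libraries. TCIM had 2.43 and 0.449 FPKM in NC, compared with 8.32 and 4.50 FPKM in KDM5_KD. IGFBP6 ranked at 219 in likeness and IGFBP2 at 7976, near the far end.

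Proteases that cleave the binding proteins, and the inhibitors of those proteases, also release or hold back ligand. Of 18 listed genes, 12 had a row and 6 were tested, and none passed in limma in either direction. At an unadjusted limma p under 0.05 there were 3, all higher, against 17.5% of all tested transcripts in either direction, and the median log2 fold change was 0.94. The serine protease gene HTRA1, whose product cleaves IGFBP5 and which was listed among the ligand carriers, was present at 8.34 and 2.13 FPKM in NC, and the knockdown libraries had 15.6 and 17.1 FPKM (log2 fold change 1.68, limma adjusted p = 0.178). PLAT, the tissue plasminogen activator gene, measured 18.0 and 3.90 FPKM in the controls against 37.8 and 58.7 FPKM in the knockdown libraries (log2 fold change 2.32, limma adjusted p = 0.159). Both had a gap between the controls as large as that of IGFBP5 or larger (1.58 and 1.95 on the log2 scale), and both passed without NC replicate 1 (limma adjusted p = 0.00618 and 0.00504). STC1 and STC2 encode stanniocalcins, which inhibit PAPPA. STC1 had 5.55 and 3.11 FPKM in NC, compared with 14.3 and 6.13 FPKM in KDM5_KD (limma adjusted p = 0.285), and its log2 fold change of 1.01 was 1.56 without KDM5_KD replicate 2 and 0.46 without KDM5_KD replicate 1. STC2 was far more abundant, with 188 and 117 FPKM in NC and 196 and 138 FPKM in KDM5_KD, and its groups overlapped. PAPPA and PAPPA2 were not analysed here. PLG, the gene of the plasminogen that the PLAT product activates, was at most 0.152 FPKM in any library.

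The 8 lists of other genes of the axis, upstream and downstream of the receptor, held 151 genes, of which 118 had a row. Of their 93 tested rows none passed in limma. At an unadjusted limma p under 0.05, 11 were higher and 1 lower, against 1286 higher and 280 lower of all 8970 tested transcripts. In all, 30.1% had both knockdown libraries above both controls and 16.1% both below, against 35.1% and 15.6% of all tested transcripts. The shares of the pathway rows were near the background, and their median log2 fold change was 0.14.

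Among the adaptors, which link the receptor to its kinases, 16 rows were tested with a median of 0.16. RACK1 and GRB2 were the most abundant of them. RACK1, a ribosome-associated scaffold that binds IGF1R, was present at 332 and 370 FPKM in NC, and the knockdown libraries had 312 and 323 FPKM. GRB2, the adaptor that couples receptors to RAS, measured 81.4 and 72.5 FPKM in the controls against 67.3 and 65.3 FPKM in the knockdown libraries. ENPP1, an inhibitor of the insulin receptor, had the largest difference of the list, with 6.43 and 3.05 FPKM in NC and 8.71 and 11.7 FPKM in KDM5_KD (limma adjusted p = 0.207). DOK4 followed with a log2 fold change of 0.52 (limma adjusted p = 0.373), which was 0.20 without KDM5_KD replicate 2.

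The PI3K, AKT and FOXO list had 25 tested rows and a median of 0.07. PIK3R1, the regulatory subunit of PI3K that docks on the adaptors, had 12.8 and 13.2 FPKM in NC, compared with 17.5 and 18.1 FPKM in KDM5_KD, with little spread in either group (log2 fold change 0.42, limma adjusted p = 0.226). INPPL1, a lipid phosphatase gene, had a log2 fold change of 0.48 (limma adjusted p = 0.345). The mTOR list had 18 tested rows and a median of 0.01. Its named differences were MAPKAP1, a subunit of mTOR complex 2, at 0.59 and DDIT4, an inhibitor of mTOR complex 1, at 0.51 on the log2 scale (limma adjusted p = 0.321 and 0.313). Without KDM5_KD replicate 2 they were at 0.27 and 0.24.

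The RAS, RAF and ERK list had a median of 0.28 over 19 tested rows. In it 11 rows had both knockdown libraries above both controls and 1 had both below, where 35.1% and 15.6% of all tested transcripts did. DUSP6, a phosphatase induced by ERK signalling, was present at 7.74 and 6.75 FPKM in NC, and the knockdown libraries had 12.2 and 13.0 FPKM (log2 fold change 0.72, limma adjusted p = 0.139). The kinase gene ARAF measured 3.94 and 3.80 FPKM in the controls against 6.01 and 7.08 FPKM in the knockdown libraries (log2 fold change 0.63, limma adjusted p = 0.195). Their gaps between the controls were 0.17 and 0.04 on the log2 scale, against 1.50 for IGFBP5.

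The RNA-binding proteins named after the IGF2 messenger and their partners were tested with 5 rows of 7 listed genes and a median log2 fold change of 0.63. IGF2BP1 had 57.3 and 59.0 FPKM in NC, compared with 48.8 and 46.5 FPKM in KDM5_KD (limma adjusted p = 0.290). IGF2BP3 was present at 22.3 and 15.7 FPKM in NC, and the knockdown libraries had 26.4 and 32.9 FPKM (limma adjusted p = 0.218). These paralogs thus stood on opposite sides of 0, with log2 fold changes of -0.28 and 0.63. A further paralog, IGF2BP2, had 0.68 with overlapping groups (limma adjusted p = 0.362). LIN28A, which blocks the maturation of let-7 microRNAs, measured 10.9 and 8.87 FPKM in the controls against 16.2 and 21.1 FPKM in the knockdown libraries (log2 fold change 0.85, limma adjusted p = 0.139). HMGA1, a chromatin protein gene, had a log2 fold change of -0.23 (limma adjusted p = 0.393). In the growth hormone list, which covers the hormone that drives IGF1 in liver, 3 rows were tested, with a median of -0.13. The receptor gene GHR was under 0.3 FPKM in every library, and CISH, a feedback inhibitor, had a log2 fold change of -0.25 (limma adjusted p = 0.527), or -0.15 without KDM5_KD replicate 2.

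**Figure D5:**
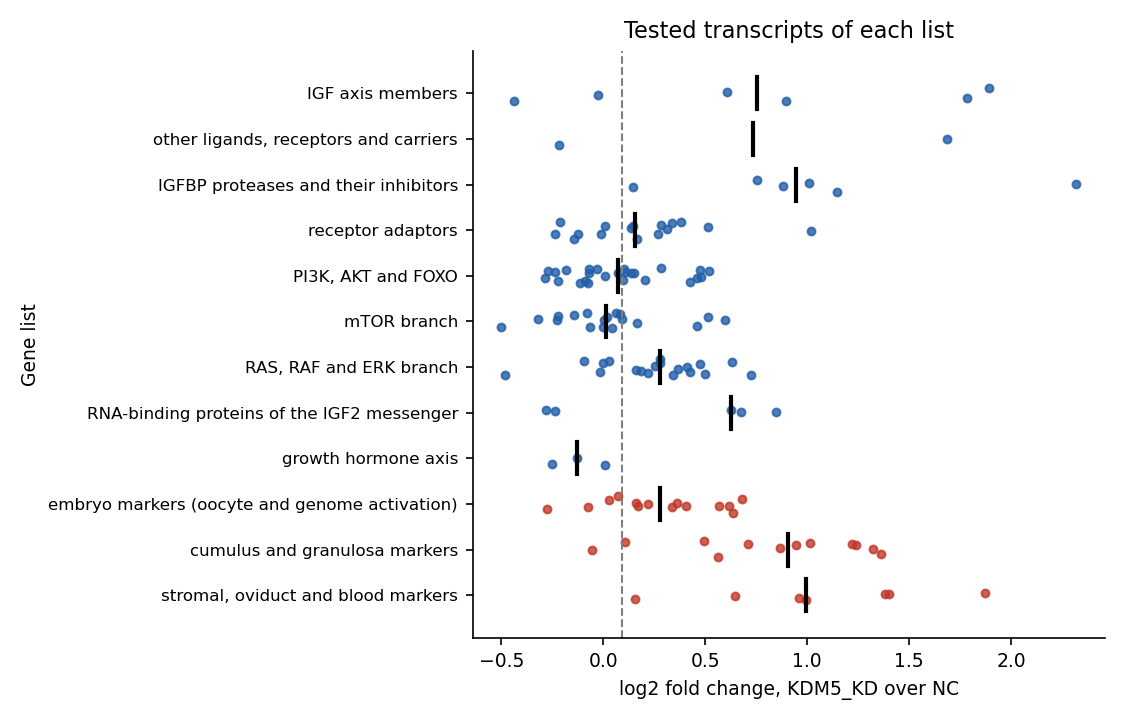
Log2 fold change of each tested transcript (points) by list, with the list median as a black bar and the median of all tested transcripts, 0.09, as a dashed line. Points are spread vertically within a list for legibility. The members, the proteases and the 2 lists of somatic markers have medians of 0.75 to 0.99, while the adaptor, PI3K and mTOR lists lie near the dashed line. The list of other ligands, receptors and carriers has a median of 0.73 from 2 tested rows of opposite sign, IGF2R at -0.22 and HTRA1 at 1.68. The RNA-binding protein list has a median of 0.63.

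IGFBP5, IGFBP6 and IGFBP7 are also expressed by somatic cells, so markers of cells that surround an embryo or oocyte were measured beside them. Of 22 listed cumulus and granulosa genes, 21 had a row. Their summed level was 38.7 to 53.9 FPKM in NC and 85.8 to 88.5 FPKM in KDM5_KD. Of the 12 tested, 11 had both knockdown libraries above both controls, with a median log2 fold change of 0.91, and none passed in limma (9 had an unadjusted p under 0.05). Among all tested transcripts 35.1% lay above both controls and 17.5% had such a p. VCAN had 0.811 and 0.524 FPKM in NC, compared with 3.93 and 2.71 FPKM in KDM5_KD, and GREM1 had a log2 fold change of 1.32. The granulosa receptor genes FSHR and LHCGR were listed at 0 in both controls and were at most 0.0443 FPKM in the knockdown. CYP19A1 was at most 0.0602 FPKM in any library. Other genes of the list had higher levels. CYP11A1 was at 8.41 and 3.79 FPKM in NC against 12.5 and 17.2 FPKM in KDM5_KD. SERPINE2 was at 17.7 and 14.7 FPKM in NC against 29.9 and 24.4 FPKM in KDM5_KD. The tested gene whose groups overlapped, TNFAIP6, had a log2 fold change of -0.05.

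Of 16 listed stromal, oviduct and blood genes, 15 had a row. Their summed level was 58.1 to 94.8 FPKM in NC and 118 to 152 FPKM in KDM5_KD, with NC replicate 1 the higher control. The median of the 7 tested was 0.99, and 5 had both knockdown libraries above both controls. None passed in limma, and 3 had an unadjusted p under 0.05, beside the same 35.1% and 17.5% of all transcripts. LUM, a matrix proteoglycan gene, was present at 4.02 and 5.12 FPKM in NC, and the knockdown libraries had 23.8 and 15.6 FPKM (log2 fold change 1.87, limma adjusted p = 0.0610). COL1A2 had a log2 fold change of 1.40 (limma adjusted p = 0.133). The haemoglobin gene HBA, of which near-identical copies exist, had 31.5 and 5.08 FPKM in NC and 38.3 and 33.1 FPKM in KDM5_KD. It made up most of the gap between the controls in the summed level. HBB, the other listed haemoglobin gene, was at 0.140 and 0.190 FPKM in NC and listed at 0 in both knockdown libraries. The oviduct markers had lower means in the knockdown: OVGP1 was at 1.07 and 1.46 FPKM in NC against 0.692 and 0.660 FPKM, and FOXJ1 at 2.08 and 0.502 FPKM against 0.332 and 0.943 FPKM. The endothelial marker PECAM1 was listed at 0 in 3 libraries and the leukocyte marker PTPRC in NC replicate 2 and KDM5_KD replicate 2. The oocyte and genome activation list had a median of 0.28 over 14 tested rows, of which none passed in limma and 2 had an unadjusted p under 0.05. These were BMP15 at 0.68 and a DPPA3 row at 0.62, while the other DPPA3 row was at 0.03. The part of these markers in the IGFBP5, IGFBP6 and IGFBP7 differences was not tested.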

How the data were processed

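The authors deposited 1 table of FPKM, with 1 column per library and 1 row per RefSeq transcript. Trimmomatic, HISAT2, featureCounts and Cufflinks are named in the submitters' processing notes; their roles, versions and the genome build are not given in the sources used here. Columns were matched to libraries by the sample titles. Symbols came from the ARS-UCD2.0 RefSeq gene table (14295 of 14517 rows). Differences were tested with limma 3.58.1 in R 4.3.3 (lmFit, eBayes with a mean-variance trend) on log2(FPKM + 1), which understates changes of low transcripts, over the 8970 rows with a mean FPKM of at least 1 and with Benjamini-Hochberg adjustment. Read counts are unknown, so no counting intervals are given, and the steps of low values give relative depth only. The fit was tested on simulated data with noise drawn independently for each transcript and library. Such data hold no gap between the controls that many transcripts share, so they do not show how the fit handles one. The members and lists were chosen with earlier results of these data known. Named genes were the members, KDM5A and KDM5C, for each list the calls or else the 2 largest differences without overlap, for 3 lists the 2 highest levels, and the 3 transcripts nearest to IGFBP5. Other genes were named for context after their values were seen. Alternatives were another pseudocount, filters, scalings, variance model, rows summed by symbol, a replicate block and leaving out each library. The counts of members without overlap when a library is left out were added after the data were seen. Tables used Python 3.11.15, pandas 2.3.3 and numpy 2.4.6.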

Additional observations from a re-analysis of the deposited data

How the results depend on the processing

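With all 4 libraries, none of the 8 alternatives called a member, and the 6 members kept their sign in each. IGFBP5 ranged from 1.78 to 1.91 and IGFBP2 from -0.54 to -0.43. Quantile normalization shifted the median of all transcripts by -0.14. The replicate numbers shared by the groups do not show that libraries are paired (deviations of same-numbered libraries correlated at 0.229). With the replicate block, the limma adjusted p of IGFBP5 was 0.0591, and 8 transcripts were higher and 4 lower. Without a filter 2 were higher and 1 lower, with a mean FPKM of at least 5 there were 11 higher, and with eBayes without a trend 6 were higher. KDM5A lost the threshold with the block, without a filter and without a trend (limma adjusted p = 0.0591, 0.167 and 0.0605). Leaving out 1 library moved the calls over all transcripts between 3 and 323 higher and between 3 and 17 lower, those of the members between 0 and 3 higher and those of the pathway lists between 0 and 5 higher. It moved the members wholly below the controls between 1 and 2, IGFBP5 between 1.14 and 2.65, IGFBP6 between 0.28 and 1.51, and IGFBP7 between 0.82 and 2.74. IGFBP3 ranged from -0.23 to 0.18 and reversed to 0.16 without NC replicate 1 and to 0.18 without KDM5_KD replicate 2. The higher member calls came without NC replicate 1, as did calls of HTRA1, PLAT, BMP15, DPPA3, LUM, CRABP2 and TCIM (limma adjusted p = 0.00504 to 0.0434). The causes of these changes were not tested. IGFBP4 moved to 2.0 with a pseudocount of 0.1, where 3 of its 4 values lie below the pseudocount of 1 used otherwise.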
